A study of Mus musculus with 2 samples.

Results

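The 10 SOX transcription factor genes Sox2, Sox4, Sox6, Sox7, Sox9, Sox10, Sox11, Sox13, Sox17 and Sox18 were examined for open chromatin in the embryonic mouse liver. They were taken by name from 21911 protein-coding genes of the GENCODE vM21 annotation on the mouse genome build mm10. Each gene was given a window made of its gene body and 50 kb on each side. The assay was DNase-seq, in which the enzyme DNase I cuts DNA where it is accessible. The tissue was liver at 11.5 days of embryonic age from mice of strain B6NCrl, pooled from males and females, with no treatment named. The data came from 2 libraries, technical replicates 7 and 1 of 1 biological sample. There was therefore no second group and no test, and agreement between the libraries covers technical repeatability only.

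SOX proteins bind DNA through a shared HMG box that fits the minor groove and bends the helix, usually beside a partner factor. In the embryo, Sox6 silences embryonic globin genes in red cell precursors, Sox7, Sox17 and Sox18 act in blood vessel endothelium, and Sox9 marks the cells that become bile ducts. Sox2 maintains neural progenitors, Sox10 specifies neural crest and glia, Sox4 and Sox11 act in many progenitor and mesenchymal cells, and Sox13 is a close relative of Sox6. The liver at this age holds hepatoblasts, red cell precursors, endothelium and mesenchyme, and a signal from the whole organ does not say which of them carried it. In such a mixture, fewer cells with an open site and a less open site in each cell cannot be told apart.

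Technical replicate 7 listed 86036 peaks and technical replicate 1 listed 42422, each the shorter of the library's lists of one format. Joining overlapping peaks gave 34020 shared regions. Start sites of defining genes served to check the tissue label. A shared peak was present at 6 of 8 erythroid, 2 of 8 hepatoblast, 3 of 8 endothelial and 3 of 6 cholangiocyte markers. The counts were 6 of 7 for mesenchymal, 4 of 7 for neural crest and glial, 4 of 6 for neural progenitor and 1 of 5 for macrophage markers. Alb, the albumin gene of hepatoblasts, had no start peak in either library, and technical replicate 7 alone had a start peak at 7 of the 8 hepatoblast markers. Of all protein-coding genes, 59.0% had a shared start peak. The shares were lower for hepatoblast, endothelial and macrophage markers and higher for erythroid and mesenchymal markers. Those of neural crest, cholangiocyte and neural progenitor markers, sets of 6 or 7 genes, lay close to it. With 5 to 8 genes in a set, none of these differences was tested. Start peaks alone therefore did not single out liver cell types. Start peaks at neural genes were listed in a liver library, so a start peak is not read here as expression.

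A start peak is one whose midpoint lay within 1 kb of an annotated start of the gene. A shared start peak was present at 9 of the 10 SOX genes, the exception being Sox10, and the same 9 had a start peak in each library. Over all protein-coding genes, 59.0% had a shared start peak, 65.0% had one in technical replicate 7 and 59.5% had one in technical replicate 1. The number of genes is too small to call this share particular to the family. Strength, in contrast, varied widely among them. The measure of strength is the maximum density of cuts in the peak, in the authors' unit.

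Sox4 had the densest start of the 10 genes, at 2.92 in technical replicate 7 and 2.56 in technical replicate 1. Sox11, its closest relative in the set, followed at 2.47 and 2.21. Sox4 was the only gene above the median of all genes with a start peak, which was 2.75, and only in technical replicate 7. The corresponding median for technical replicate 1 was 2.70, above all 9 SOX genes that had a start peak there. The Sox4 peak at chr13:28953633-28953927 covered the start of this intronless gene. The Sox11 peak at chr12:27342622-27342964 lay 219 bp upstream of its start, and Sox11 had 3 shared regions at its start. Its other regions there had densities of 1.39 and 0.569 in technical replicate 7, and 1.63 and 1.48 in technical replicate 1.

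Sox2 was intermediate, at 1.35 in technical replicate 7 and 1.21 in technical replicate 1. Its strongest peak, chr3:34649790-34650024, lay 498 bp upstream of the GENCODE start and overlapped the bases just before the RefSeq start. Sox9, a regulator of biliary fate, had 0.865 and 0.970. The 2 Sox9 peaks, at chr11:112781983-112782315 and chr11:112782289-112782681, overlapped at their edges only. Sox13 had 0.849 and 1.44 at chr1:133424098-133424483, 86 bp from its start. Sox9 and Sox13 were thus nearly equal in one library and apart in the other.

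Sox6 had 0.797 in technical replicate 7 and 1.61 in technical replicate 1. Its strongest start peak, chr7:116031802-116031918, lay 813 bp from an internal start and not at the most upstream one. A nearby peak of technical replicate 1, chr7:116032168-116032210, lay within 1 kb of a start of another gene, Sox6os. Position alone therefore does not assign the strongest start peak to Sox6. No listed peak lay within 1 kb of the most upstream start of Sox6, and the nearest shared regions lay 1209 and 1593 bp upstream of it. The 3 vascular genes had the weakest starts. Sox17 had 0.553 and 0.960, Sox18 had 0.441 and 0.869, and Sox7 had 0.409 and 0.818 in technical replicates 7 and 1. The order of these 3 was the same in each library, and they filled the bottom of the list in both.

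The density values were whole multiples of a step of 0.00401 in technical replicate 7 and 0.0101 in technical replicate 1. If a step is taken as 1 cut, exact Poisson intervals at 95% that do not overlap mark neighbours in the order that differ beyond counting error. Overlap does not show that genes are equal. These intervals cover counting error only, and the reading of a step as a cut was not tested. In technical replicate 7 the intervals of Sox7, Sox18 and Sox17 overlapped from one to the next, and that of Sox17 (0.464 to 0.653) ended below that of Sox6 (0.690 to 0.916). Sox6, Sox13 and Sox9 overlapped one another, and Sox2, Sox11 and Sox4 each stood apart from its lower neighbour. In technical replicate 1, Sox17 and Sox9 differed by 1 step, and each neighbour up to Sox6 overlapped the next. The interval of Sox6 (1.37 to 1.88) ended below that of Sox11 (1.93 to 2.53), and Sox11 and Sox4 overlapped. The weak vascular group and the strong Sox4 and Sox11 pair were therefore apart in both libraries. Neighbours within the vascular group overlapped in both libraries, and Sox4 and Sox11 overlapped in technical replicate 1 alone.

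**Figure D1:**
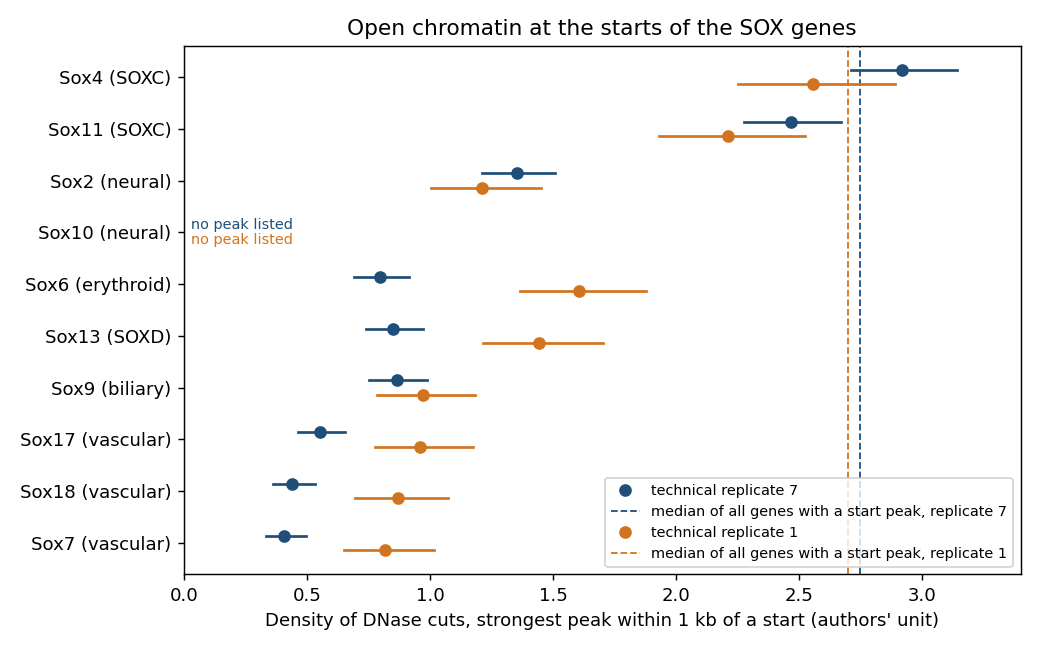
Density of DNase cuts in the strongest peak within 1 kb of a start (x axis, authors' unit) for each SOX gene (y axis), with points for technical replicates 7 and 1, bars for Poisson intervals at 95% if a step is 1 cut, and dashed lines for the median of all genes with a start peak. Sox4 and Sox11 lie at 2.21 to 2.92, the 3 vascular genes at 0.409 to 0.960, and Sox10 has no listed peak.

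CpG content separates promoter classes in mammals, since CpG-rich starts tend to be open in many tissues. The ratio of observed to expected CpG over 1000 bp around the most upstream start was 0.166 for Sox10, 0.517 for Sox6 and 0.676 to 0.961 for the other 8 genes. For Sox6 the ratio and the start peak belong to different starts, since its peak lay near an internal one. A ratio of 0.6 or more was found at 10065 protein-coding genes, of which 92.5% had a shared start peak, and all 8 SOX genes in that class had one. Below 0.2, only 8.18% of 4989 genes had one, and Sox10 fell in that class. The presence or absence of a start peak at these 9 genes thus matched the common outcome of their CpG class, with Sox6 lying between them.

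Strength was also read within the CpG-rich class. Among the CpG-rich genes with a start peak, technical replicate 7 had a median density of 3.38 and technical replicate 1 one of 3.03, with lower quartiles of 1.92 and 2.04. All 8 CpG-rich SOX genes lay below the median in both libraries. Sox4 and Sox11 were above the lower quartile, and Sox2, Sox7, Sox9, Sox13, Sox17 and Sox18 were below it in both libraries.

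**Figure D2:**
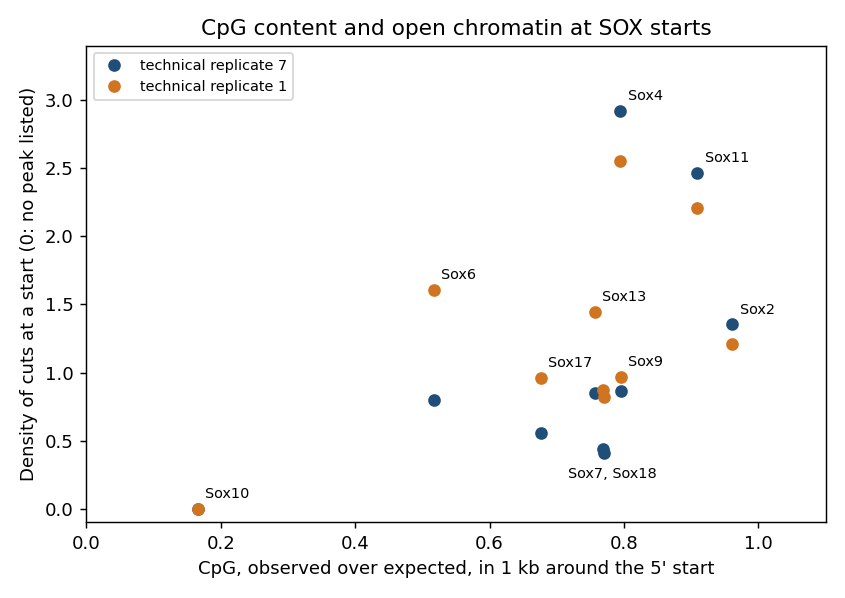
Observed over expected CpG in 1000 bp around the most upstream start (x axis) against the density of cuts in the strongest start peak (y axis, authors' unit, 0 where no peak is listed), 1 point per gene and library. Genes with ratios of 0.756 to 0.796 span densities from 0.409 to 2.92 in technical replicate 7, and Sox10 stands alone at 0.166. The Sox6 peak lay near an internal start and not at the start where its ratio was taken.

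The wider accessible domains, which the authors call hotspots, ranked the genes differently in part. The hotspot at the Sox11 start was the widest, 3513 bp in technical replicate 7 and 2965 bp in technical replicate 1, with a highest −log10 false discovery rate of 59.3 and 19.7. Sox4 followed with 2378 and 2240 bp, and values of 51.0 and 12.6. The Sox18 hotspot measured 338 bp in technical replicate 7 and 1613 bp in technical replicate 1, and that of Sox17 measured 683 and 1604 bp. Sox17 and Sox18 were thus the genes whose domains were much wider in technical replicate 1. Sox10 had a hotspot only in technical replicate 7, 231 bp wide with a value of 1.74, and no peak within it passed into either list of that library.

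Promoter sequences of 250 bases before the start were matched by symbol in the RefSeq table for build GRCm38.p6, which is mm10, for 5 of the 10 genes, 10 promoters in all. Those not in the table were Sox7, Sox9, Sox10, Sox17 and Sox18. The sequences of the 2 strongest starts, of Sox2 and of 1 internal Sox6 start are shown because they carry different letters. They are 5′ to 3′ on the strand of the gene, and capitals mark any match to the 17 motifs searched. The Sox4 promoter is chr13:28953700-28953949 on the minus strand, and that of Sox11 is chr12:27342719-27342968 on the minus strand. The Sox2 promoter is chr3:34649745-34649994 on the plus strand, and the internal Sox6 promoter is chr7:115846141-115846390 on the minus strand.
Sox4: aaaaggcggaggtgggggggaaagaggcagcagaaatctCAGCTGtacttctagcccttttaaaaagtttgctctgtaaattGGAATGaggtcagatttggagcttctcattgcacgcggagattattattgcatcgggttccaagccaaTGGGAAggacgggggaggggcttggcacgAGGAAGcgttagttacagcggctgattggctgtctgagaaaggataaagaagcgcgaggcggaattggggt
Sox11: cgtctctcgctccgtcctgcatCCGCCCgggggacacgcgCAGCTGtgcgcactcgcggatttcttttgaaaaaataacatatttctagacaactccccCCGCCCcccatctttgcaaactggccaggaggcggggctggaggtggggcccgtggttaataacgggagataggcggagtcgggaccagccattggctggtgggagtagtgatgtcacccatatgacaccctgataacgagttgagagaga
Sox2: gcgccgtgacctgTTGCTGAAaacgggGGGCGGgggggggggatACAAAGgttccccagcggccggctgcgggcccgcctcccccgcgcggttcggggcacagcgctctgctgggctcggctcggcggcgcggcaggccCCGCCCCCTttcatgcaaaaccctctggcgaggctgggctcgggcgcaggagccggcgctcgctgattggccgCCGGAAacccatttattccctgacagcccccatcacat
Sox6: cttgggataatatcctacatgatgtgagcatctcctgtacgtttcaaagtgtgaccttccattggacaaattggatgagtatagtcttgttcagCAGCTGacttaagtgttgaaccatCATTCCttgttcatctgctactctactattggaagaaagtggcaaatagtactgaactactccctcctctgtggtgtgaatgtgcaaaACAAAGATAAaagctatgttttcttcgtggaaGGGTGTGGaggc

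The motifs searched on both strands were SOX (ACAAAG, alternatively ACAATG), the GATA factors (AGATAA), ETS factors (CCGGAA, alternatively AGGAAG), the CTCF core (AGGGGGC, alternatively AGGTGGC, alternatively AGATGGC), the KLF1 site or CACCC box (CCACACCC) and the GC box (GGGCGG). The others were NFE2 and AP-1 (TGAGTCA or TGACTCA), FOXA (TGTTTAC or TATTTAC), HNF4 (CAAAGTCCA), HNF1 (GTTAATNAT), CEBP (TTGCNNAA), TEAD (GGAATG) and RBPJ (TGGGAA). The last were TCF and LEF (ATCAAAG), NRF1 (GCGCATGCG), E-box (CAGCTG) and a TAL1 and GATA composite. Some overlap, since SOX and GATA letters share bases in the internal Sox6 promoter, and the GC box and CTCF core do so in the Sox2 promoter. A match describes letters and does not show binding.

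The Sox2 promoter held SOX letters, 2 GC boxes and a CTCF core match, and its peak in technical replicate 7 reached 1.35. The internal Sox6 promoter was the only one of the 10 with the GATA letters AGATAA, overlapping SOX letters, and it also held a CACCC box. GATA1 and KLF1 are red cell regulators that recognise such letters. This start had a peak only in technical replicate 7, with a density of 0.421. SOX letters were present in 6 of the 10 promoters, 5 of them from Sox6 and 1 from Sox2, against 25.2% of 32851 promoters. GATA letters, in 1 of the 10 promoters, were about as frequent as in all promoters, at 9.99%. The Sox11 promoter held tgataa, which differs from the searched letters in its first base and was not counted. CACCC boxes, in 1 of the 10, were present in 3.20% of all promoters. The internal Sox6 promoter was picked for its letters. The Sox6 promoters are alternative starts of 1 gene and are not independent cases.

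The windows of the 10 genes held 110 peaks of technical replicate 7 and 59 of technical replicate 1, which formed 43 shared regions. Of these, 21 lay at a start, 13 of them at a start of the SOX gene itself. The other 22 were distal, more than 1 kb from any start, with 6 intergenic, 5 in an intron of the SOX gene, 6 in an exon and 5 in an intron of another gene. At least 1 distal shared region was present for 8 of the 10 genes, against 59.9% of all protein-coding genes, and the exceptions were Sox7 and Sox9. The median rate over the 10 genes was 0.981 distal shared regions per 100 kb, against 0.781 over all protein-coding genes. In technical replicate 7 it was 3.30 peaks per 100 kb against 2.96. As a group, the SOX windows were near the background, and the spread lay between genes.

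Sox4 had the highest rate, 10.5 distal peaks per 100 kb in technical replicate 7, at the 95.4 percentile of all protein-coding genes. Sox13 had 7.74, Sox18 had 6.88 and Sox11 had 6.46. Sox17 had 3.76, and Sox9, Sox7, Sox10, Sox6 and Sox2 had between 1.96 and 2.84. Sox4 and Sox13 also led in shared regions, at the 97.4 and 90.2 percentiles. Sox18 did not, since its 7 distal peaks in technical replicate 7 came with 1 distal shared region, and 5 of them were in that library's list alone. These rates and their order moved with the width of the window. With 100 kb on each side, Sox4 had 6.35, below Sox13 at 7.02 and Sox7 at 6.76, and Sox10 had 6.18. With 20 kb, Sox4 led at 20.1, followed by Sox11 at 14.5. Sox6 had the most distal peaks by number, 16, in a window of 667.925 kb, so its rate was low.

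**Figure D3:**
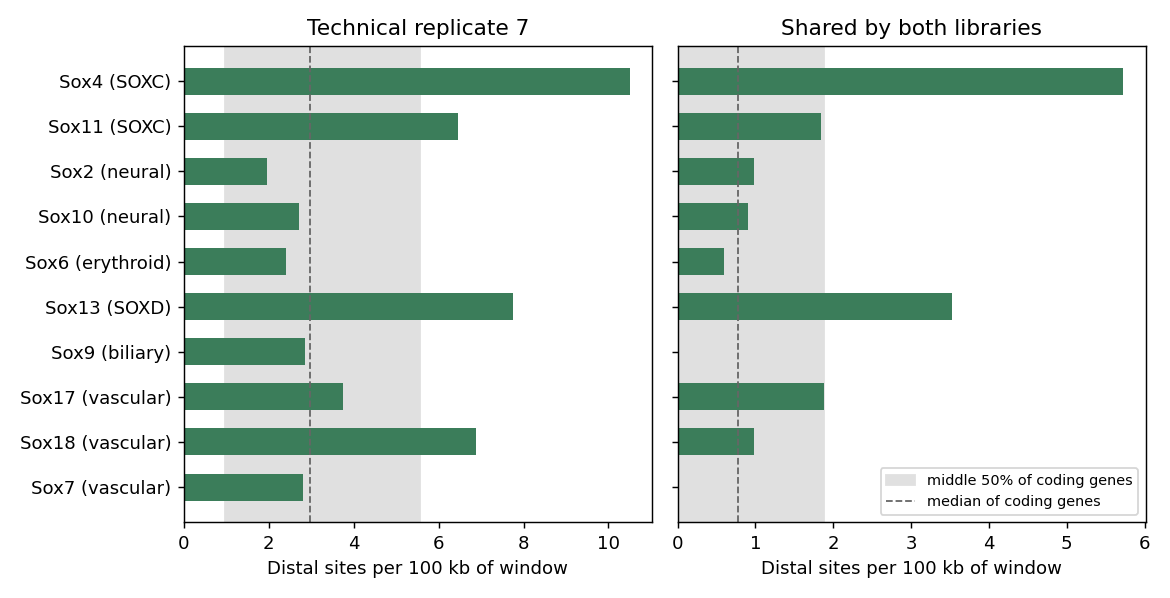
Distal sites per 100 kb of window (x axis) for each SOX gene (y axis), as peaks of technical replicate 7 on the left and as regions shared by both libraries on the right, with the median and middle 50% of protein-coding genes in grey. Sox4 and Sox13 lie above the grey band in both panels, while Sox7 and Sox9 have no shared distal region.

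Strong distal shared regions of 6 genes are printed here to compare the letters under their footprints. For Sox13 the densest of its intronic shared regions is given. A footprint is a short stretch protected from DNase within an open site. The sequences are 5′ to 3′ on the plus strand of GRCm38 (mm10) and span the peak of technical replicate 7. Capitals mark any match to the same motifs. The Sox4 region is chr13:28957847-28958082, the Sox6 region is chr7:116040278-116040499, and the Sox2 region is chr3:34647803-34648014. The Sox18 region is chr2:181659610-181659858, the Sox10 region is chr15:79148640-79148859, and the Sox13 region is chr1:133385586-133385804.
Sox4: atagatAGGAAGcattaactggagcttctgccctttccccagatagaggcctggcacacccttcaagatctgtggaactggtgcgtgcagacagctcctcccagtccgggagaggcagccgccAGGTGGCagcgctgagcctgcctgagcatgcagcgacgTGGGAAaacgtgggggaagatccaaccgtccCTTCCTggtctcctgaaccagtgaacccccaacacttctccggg
Sox6: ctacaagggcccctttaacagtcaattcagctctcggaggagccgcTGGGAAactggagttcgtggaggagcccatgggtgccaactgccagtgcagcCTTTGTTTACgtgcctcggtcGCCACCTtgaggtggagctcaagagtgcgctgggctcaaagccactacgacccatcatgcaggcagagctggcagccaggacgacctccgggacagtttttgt
Sox2: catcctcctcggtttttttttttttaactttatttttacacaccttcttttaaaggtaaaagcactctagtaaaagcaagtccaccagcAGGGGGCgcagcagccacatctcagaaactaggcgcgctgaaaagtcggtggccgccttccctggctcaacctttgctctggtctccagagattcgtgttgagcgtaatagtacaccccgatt
Sox18: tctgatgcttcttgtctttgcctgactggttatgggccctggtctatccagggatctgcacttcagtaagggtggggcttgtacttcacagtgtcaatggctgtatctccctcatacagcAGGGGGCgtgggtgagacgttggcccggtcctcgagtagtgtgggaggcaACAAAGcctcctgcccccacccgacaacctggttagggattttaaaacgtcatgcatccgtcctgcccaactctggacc
Sox10: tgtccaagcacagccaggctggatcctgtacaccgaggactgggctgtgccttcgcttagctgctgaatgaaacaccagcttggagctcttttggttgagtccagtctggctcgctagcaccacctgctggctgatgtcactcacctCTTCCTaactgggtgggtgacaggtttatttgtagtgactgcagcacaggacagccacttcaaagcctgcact
Sox13: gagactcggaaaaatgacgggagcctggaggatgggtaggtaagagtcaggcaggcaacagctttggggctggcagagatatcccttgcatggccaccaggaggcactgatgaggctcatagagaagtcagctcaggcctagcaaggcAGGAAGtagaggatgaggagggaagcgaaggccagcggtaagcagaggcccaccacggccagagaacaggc

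The Sox4, Sox6, Sox2 and Sox18 regions each held a CTCF core match, and in each it lay within a footprint of both libraries. CTCF is a zinc finger protein that binds insulators and loop anchors. In the Sox4 region the letters were bases 124 to 130, under footprints at bases 114 to 141 in technical replicate 7 and 112 to 143 in technical replicate 1. In the Sox6 region they were bases 120 to 126, under footprints at 116 to 127 and 117 to 133. In the Sox2 region they were bases 90 to 96, under footprints at 81 to 104 and 80 to 103. In the Sox18 region they were bases 121 to 127, under footprints at 113 to 135 and 112 to 137. The footprints of the 2 libraries thus lay over the same letters in all 4 regions. The weaker distal Sox17 region, with 0.485 in technical replicate 7 and not printed, held no CTCF core match. The peak of that library there had a footprint in technical replicate 7 only.

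The Sox10 and Sox13 regions had footprints in both libraries but no exact match to the searched letters under them. Near matches were not counted in these or other regions, so how common they are under footprints is unknown. The stretches accacct in the Sox10 region and aggaggc in the Sox13 region lay under these footprints. Both were close to the CTCF core letters on one of the strands, and whether CTCF binds there was not tested. In the Sox10 region the footprints were bases 107 to 135 and 108 to 132, and in the Sox13 region bases 90 to 111 and 89 to 117. The Sox6 region also held SOX letters at bases 99 to 104 that overlapped FOXA letters at bases 102 to 108, and neither lay in a listed footprint. The SOX letters of the Sox18 region, at bases 171 to 176, were likewise outside the footprints.

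Over the 22 distal shared regions, searched 75 bp to each side of the midpoint, CTCF core letters under a footprint of both libraries were found in 6, or 27.3%, against 23.5% of 14326 distal shared regions. Among regions with a density of at least 1 in technical replicate 7, a limit chosen after the values were seen, they were found in 5 of 9, against 31.1% of 8069. Below that limit they were found in 1 of 13, against 13.6% of 6257. SOX letters were found in 2 of the 22, against 14.4% of all distal shared regions. GATA letters were found in 1, against 9.05%, and ETS letters in 4, against 25.1%. RBPJ letters, the target of Notch signalling, were found in 4, against 14.3%. E-box letters were found in 1, against 14.1%, FOXA letters in 1, against 2.42%, and GC boxes in 3, against 17.8%. None of the 22 held the composite, KLF1, NFE2 and AP-1, HNF4, HNF1, CEBP, TEAD, TCF and LEF, or NRF1 letters, whose shares of all distal regions ran from 0.230% to 7.04%. Searching the whole peak in place of this window raised GC boxes to 8, E-box letters to 4, and KLF1 and TEAD letters to 2 each, with TCF and LEF letters in 1. With 22 regions these counts cannot separate the SOX windows from the background.

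At least 1 footprint lay in 46.4% of the 110 window peaks of technical replicate 7, against 58.2% of all its peaks. In technical replicate 1 they lay in 88.1% of 59, against 84.3%. The footprint lists of the libraries came from different processing, so their numbers are not compared with each other.

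Around Sox4, the strongest distal region lay 4252 bp upstream of the start and had densities of 2.99 in technical replicate 7 and 2.75 in technical replicate 1. It was as dense as the Sox4 start itself. A region 4821 bp upstream had 1.42 and 1.55, and one 6016 bp upstream, named after its values were seen, had 1.41 and 2.0. These 3 intergenic regions formed a cluster within 2 kb, and the window held no other protein-coding gene. The other 3 distal shared regions lay within the single exon of Sox4. Around Sox11, the 2 distal shared regions also lay in its single exon, 1319 and 3198 bp from the start, with densities of 0.433 and 0.429 in technical replicate 7. Their densities in technical replicate 1 were 1.09 and 1.00. The strongest distal peak of Sox11, 1750 bp inside the gene, had 0.533 and was listed in technical replicate 7 only. Sox11 thus had no shared region beyond its own gene body and start, unlike Sox4.

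Around Sox6, the region 1593 bp upstream of the most upstream start had densities of 2.29 and 1.58, above those of the gene's own start peaks in technical replicate 7. It lay in an intron of the neighbouring gene 1110004F10Rik, so its position does not assign it to Sox6. A second region there, 1209 bp upstream, had 0.304 and 1.20. Within the gene, the 1 distal shared region in an intron lay at chr7:115941798-115942119, with 0.881 and 0.737. Another lay past the 3′ end at chr7:115453364-115453637, with 0.917 and 1.38. The remaining distal peaks in introns of Sox6 were listed in technical replicate 7 only. The densest of them, named after its value was seen, had 1.46 at chr7:116032997-116033207, 5694 bp inside the gene. At starts of Sox6, 2 regions were shared. The peak at chr7:116032168-116032210, at a start of Sox6os inside the gene, had 1.61 and was listed in technical replicate 1 only. Over a gene body of 567925 bp, the sites seen by both libraries were thus few.

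Sox13 had its strongest distal region at its 3′ end, chr1:133382124-133382335, with densities of 2.11 and 1.76. A region in an intron, chr1:133385586-133385804, had 1.37 and 1.33. Its other strong shared region, with 1.53 and 1.74, was the start of the neighbouring gene Etnk2. Within the introns of Sox13, 3 distal regions were shared in all, against 1 in Sox6, although Sox6 is the longer gene.

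Among the vascular genes, Sox17 differed from its relatives in where its peaks lay. All of its shared regions lay within the gene, at one of its starts and at 3765 and 5206 bp from the most upstream start. The densities of these distal regions were 0.445 and 0.485 in technical replicate 7, and 0.778 and 1.08 in technical replicate 1. In the region at 5206 bp the strongest peaks of the 2 libraries did not overlap and were joined through another peak. Sox17 was also the only SOX gene with more listed peaks in technical replicate 1 than in technical replicate 7, 8 against 5, which 2.47% of all protein-coding genes showed. In the 5 kb centred on its most upstream start, peak bases numbered 413 in technical replicate 7 and 1196 in technical replicate 1.

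Sox18 lies among 6 other protein-coding genes. Its only shared distal region lay 11906 bp past the start on its strand, with densities of 1.25 and 1.19, above the 0.441 and 0.869 of its start. The strongest distal peak of technical replicate 7, chr2:181678864-181679098, had 1.81 but was absent from the list of technical replicate 1. The other shared regions of the window were at the starts of Tcea2, Rgs19 and Oprl1, the densest being 1.62 and 2.26 at Rgs19. Sox7 had 1 shared region, its own start, and its 3 distal peaks had densities of at most 0.469 and were listed in technical replicate 7 only.

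Sox9 likewise had 1 shared region, its own start. Its strongest distal peak, 2231 bp upstream at chr11:112779853-112780132, had 0.629 in technical replicate 7 and no listed counterpart in technical replicate 1, although the footprint list of technical replicate 1 placed 2 footprints within it. In the 5 kb centred on the Sox9 start, peak bases numbered 2211 in technical replicate 7, the most of the 10 genes, and 572 in technical replicate 1. Sox9 was thus covered broadly at low density, and mostly in one library.

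Of the neural genes, Sox2 had a distal shared region 2496 bp upstream, in an intron of the long noncoding gene Sox2ot, with 1.36 and 1.57. This was as dense as the Sox2 start in technical replicate 7 and denser in technical replicate 1. Another shared region, 615 bp inside the gene, had 0.473 and 1.19. Sox10 had no listed peak in its gene body or at its starts. Its window held the start of Polr2f and 1700088E04Rik, with 4.48 and 3.57, denser than the start of any of the 10 SOX genes. It also held 2 regions at the start of Micall1, with 1.13 and 0.501 in technical replicate 7 and 1.54 and 1.13 in technical replicate 1. The distal Sox10 region printed with its sequence, with 1.92 and 1.80, lay in an intron of Polr2f. The shared regions of the Sox10 window thus all lay at or in other genes.

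**Figure D4:**
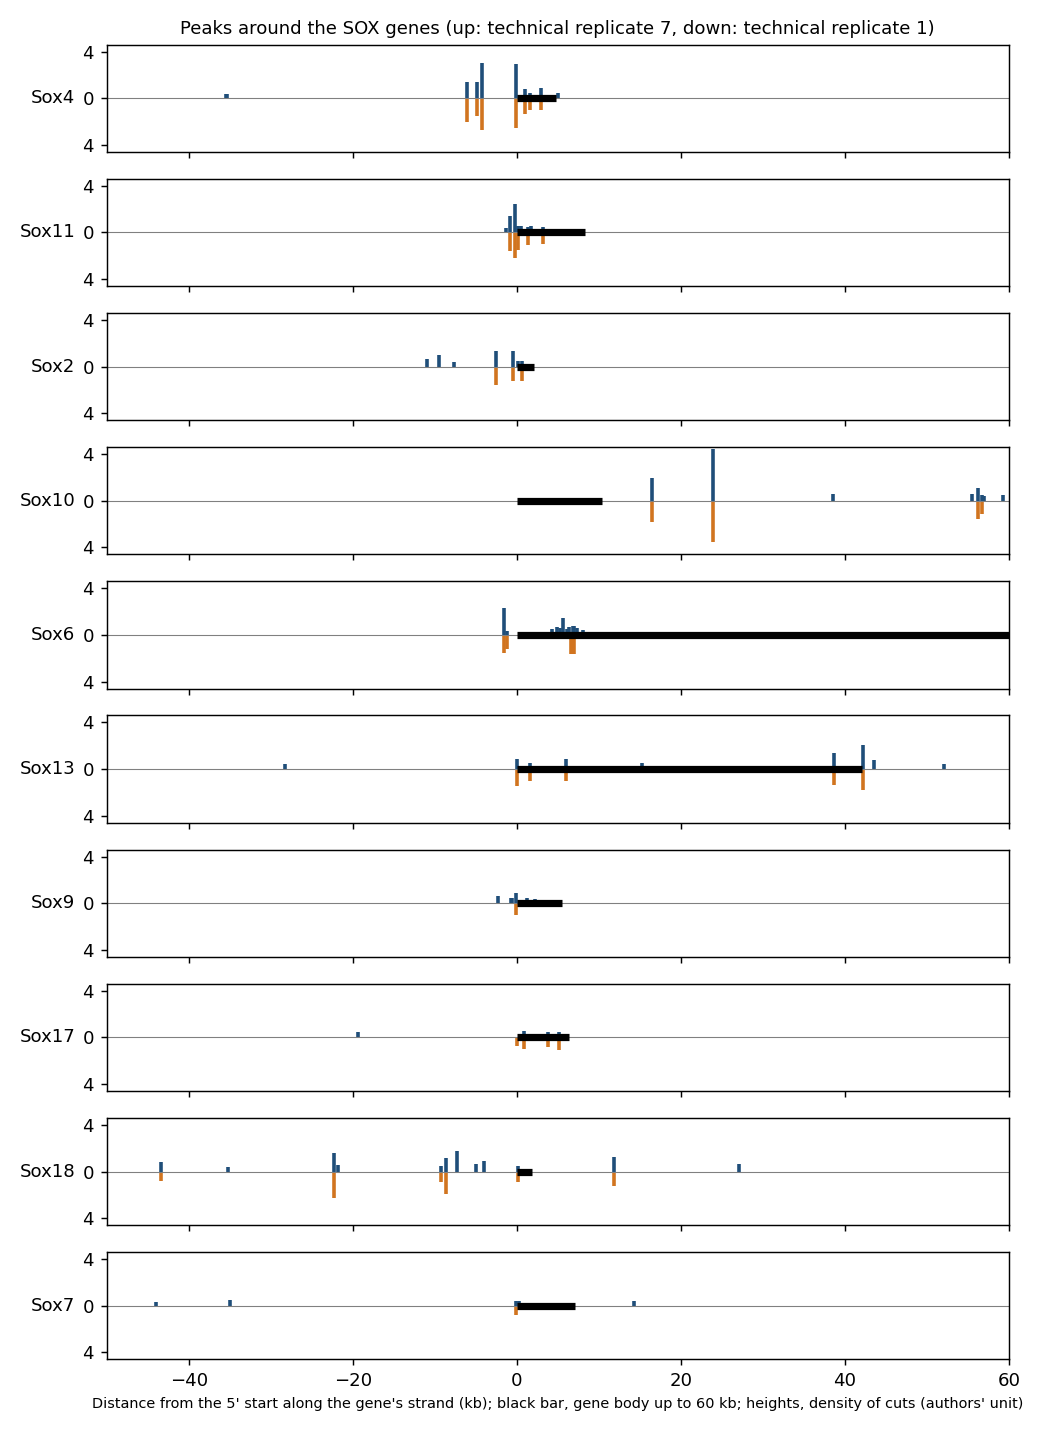
Peaks in each window by distance from the most upstream start along the strand of the gene (x axis, kb, cropped to the left and right of the start), with density of cuts (authors' unit) upward for technical replicate 7 and downward for technical replicate 1, and the gene body as a black bar. Sox4 shows 3 upstream regions listed in both libraries, Sox10 shows none over its gene body, and Sox18 shows an upstream peak of 1.81 listed in technical replicate 7 only.

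The other 10 SOX genes of the mouse showed a shared start peak at 6 of 10, near the 59.0% of all protein-coding genes. Sox12, which belongs to the same group as Sox4 and Sox11, had the densest start of the family, at 4.69 and 3.62. Sox8, a relative of Sox9 and Sox10, had 2.61 and 1.99, and Sox15 had 1.85 and 1.08. Sox30 had 0.737 and 0.869, Sox21 had 0.557 and 1.36, and Sox3 had 0.308 and 0.636. Sox5, with 0.569, and Sox1, with 0.493, were listed in technical replicate 7 only. Sox14 and Sry had no start peak. In the group of Sox4, Sox11 and Sox12 every gene exceeded every vascular SOX gene in both libraries.

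Genes known to work beside the SOX factors were counted in the same way. In the red cell list around Sox6, 9 of 12 genes had a shared start peak, the densest in technical replicate 7 being Zbtb7a (4.81 and 5.94), a globin repressor, Epor (4.70 and 3.08), the erythropoietin receptor, and Tal1 (2.39 and 2.06). Of the 12 genes, 8 had a denser start than Sox6 in technical replicate 7, 2 a less dense one and 2 none, and in technical replicate 1 the counts were 5, 4 and 3. Sox6, read from a peak that also lay near a start of Sox6os, thus lay within the range of its list. It was above Gata1 (0.697 and 0.828), the red cell master regulator. In technical replicate 7, however, the value of Gata1 lay inside the Poisson interval of Sox6 (0.690 to 0.916). In the vascular list 9 of 15 had one, led by Efnb2 (3.12 and 4.11), Notch1 (1.84 and 2.15) and Prox1 (1.54 and 2.02). In technical replicate 7, 12 of the 15 were denser than Sox7, 11 than Sox18 and 7 than Sox17, and 2 had no start peak. The endothelial receptor genes Tek, at 0.425, and Tie1, at 0.344, were as weak as Sox7 there. In technical replicate 1, 10 were denser than each of the 3 SOX genes and the other 5 had no start peak. Genes set beside Sox6 and the vascular SOX genes outside the 3 densest were chosen after their values were seen.

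In the biliary list 9 of 12 had a shared start peak, led by the Notch pathway genes Notch2 (4.26 and 4.16), Jag1 (3.42 and 2.30) and Hes1 (3.18 and 2.01). In technical replicate 7, 6 were denser than Sox9, 3 less dense and 3 without a start peak, and in technical replicate 1 the counts were 7, 2 and 3. In the neural progenitor list 7 of 12 had one, led by Lhx2 (2.10 and 1.69), Pou3f3 (1.45 and 1.32) and Nes (1.41 and 1.66). Sox2 was exceeded by 3 of the 12 in technical replicate 7 and by 4 in technical replicate 1. In the neural crest list 6 of 12 had one, among them Mitf (3.20 and 2.08) and Erbb3 (1.05 and 1.49), while Sox10 had none. In the list around Sox4 and Sox11 it was 9 of 10, led by Col1a1 (2.68 and 2.24), Pdgfra (2.14 and 1.70) and Lhx2, and no gene of the list had a denser start than Sox4 in either library. The lists hold between 10 and 15 genes, and their shares are read only beside the 59.0% of all protein-coding genes.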

How the data were processed

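DNase-seq peaks, hotspots and footprints of 2 libraries, technical replicates 7 and 1 of 1 biological sample, were used as deposited on assembly mm10, per the labels. No label or header used here names the aligner, the callers or their thresholds. Peak density is a signal value of the authors, scaled in a way the file headers do not state, and 100% of values were whole multiples of a step within 0.02 steps. The steps of the libraries differed 2.52 times. Hotspots carry the −log10 of a false discovery rate, per the file headers. The deposited footprints of technical replicate 1 carry a constant p-value of 0.01, read as a threshold. Read totals are unknown, so depth limits cannot be given.

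Peaks of the shorter lists overlapping by at least 1 bp were joined into shared regions, placed at the midpoint of the strongest peak of technical replicate 7. Starts came from GENCODE vM21 basic transcripts, motifs from exact letters on GRCm38. Python 3.11.15, pandas 2.3.3, NumPy 2.4.6, pysam 0.24.0 and matplotlib 3.10.9 were used. Interval code was tested on simulated data. The text names every SOX gene, its strongest start peak, its shared regions (the 3 strongest where over 6) and its strongest distal peak of technical replicate 7, and the 3 genes of each other list with the densest start in that library. 1 gene that this rule names is not reported here. Members and lists were chosen with earlier results of these data known.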

Additional observations from a re-analysis of the deposited data

How the results depend on the processing

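With no replicate animals, only technical repeatability could be checked. The count of SOX genes with a shared start peak, 9, fell to 5 when each peak had to cover at least 50% of the other, which removed Sox2, Sox4, Sox7 and Sox18. It was 8 with starts counted within 500 bp, without Sox6, and 9 with the longer lists, starts within 2500 bp, all annotated transcripts or the earlier processing of technical replicate 1. Using one library alone gave 9 in each case. Sox10 was without a start peak under every setting run. The count of distal shared regions, 22, rested more on the libraries: it ranged from 27 to 67 with one library alone, the upper value from technical replicate 7, and was 42 with the earlier processing of technical replicate 1, an alternative chosen after seeing the data. It lay between 15 and 32 under the other settings. The cause was not tested. Footprints in window peaks of technical replicate 7 numbered 84, and 255 with the longer list. No paired analysis was possible because the result comes from no test.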
